A study of Mus musculus with 12 samples.

Results

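The genes described here are the 37 genes of the mouse mitochondrial chromosome, taken as every gene of the deposited liver RNA-seq table whose symbol starts with mt-, out of 49584 genes in all. They comprise 13 protein-coding genes, 2 ribosomal RNA (rRNA) genes and 22 transfer RNA (tRNA) genes, and all 37 lie on chrM at the positions that GENCODE M21 gives them (mm10). The 12 libraries fall into 4 groups of 3, all from livers of age-matched C57BL/6/129/SvJ mice collected 24 h after an intraperitoneal injection; the age itself is not stated. Wild-type animals received saline in the first group and N-ethyl-N-nitrosourea (ENU, an alkylating mutagen) at 150 µg per g in the second, and G1 Tert-/- animals received saline in the third and ENU at that dose in the fourth. Tert encodes the catalytic subunit of telomerase. The labels do not say whether each library came from a separate mouse. The p-values therefore set group differences against the scatter among these libraries, which may be technical in part. Whether they carry over to mice is not known.

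The mitochondrial genome is transcribed from both strands as long precursor RNAs that are cut into mRNAs, rRNAs and tRNAs, largely at the tRNAs between them. Its proteins are core subunits of the respiratory chain: the mt-Nd proteins belong to complex I, mt-Cytb to complex III, the mt-Co proteins to complex IV and the mt-Atp proteins to the ATP synthase, complex V. All other subunits, the RNA polymerase and the mitochondrial ribosomal proteins are encoded in the nucleus, and hepatocytes, rich in mitochondria, carry much of this RNA.

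A few stretches of sequence bear on what can be counted, and all come from the GENCODE M21 transcripts of mm10, written 5′ to 3′. The first pair is shown because mt-Nd6, which gave the smallest adjusted p of all members after ENU, is the only protein-coding gene on the light strand and meets mt-Nd5 end to end. The last 60 bases of mt-Nd5 (chrM:13506-13565, plus strand) and of mt-Nd6 (chrM:13552-13611, minus strand) share 14 base pairs, in capitals:
mt-Nd5 end: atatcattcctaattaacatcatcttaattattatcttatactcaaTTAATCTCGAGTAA
mt-Nd6 end: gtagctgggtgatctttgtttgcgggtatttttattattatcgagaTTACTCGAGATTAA
Whether reads were counted by strand is not given in the sources used here, so reads of mt-Nd6 and of RNA from the opposite strand cannot be told apart.

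The whole of mt-Atp8 (chrM:7766-7969, plus strand, 204 bases) is shown because it was called in 2 comparisons and overlaps its neighbour. Its last 43 bases, in capitals, are also the first bases of mt-Atp6:
mt-Atp8: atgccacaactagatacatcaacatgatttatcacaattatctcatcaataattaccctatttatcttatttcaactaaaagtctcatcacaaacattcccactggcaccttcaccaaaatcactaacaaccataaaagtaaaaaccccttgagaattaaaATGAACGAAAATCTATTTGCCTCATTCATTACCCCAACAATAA

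The start of mt-Nd3 (chrM:9459-9518, plus strand) is set beside the start of Gm28438, an unprocessed pseudogene on chromosome 1 (chr1:24613060-24613119, minus strand), because the division of reads between them differed between libraries. The 345 bases compared differ at a single base, T3C, counted from 1 at the 5′ end of mt-Nd3 and printed as a capital:
mt-Nd3 start: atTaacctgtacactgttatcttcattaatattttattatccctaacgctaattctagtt
Gm28438 start: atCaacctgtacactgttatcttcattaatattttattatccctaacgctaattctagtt

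Total reads in genes, recovered from the FPKM values (reads scaled for gene length and library size), ranged from 30053822 to 43680374 per library. Tert was at 1.61 to 6.23 FPKM in the wild-type libraries and at 0.304 to 1.62 in the Tert-/- libraries. Library 2 of the Tert-/- saline group stood apart: it had reads in 17486 genes against 19576 to 20310 elsewhere, its 20 highest genes held 29.53% of its reads against 17.36 to 21.69%, and the median ratio of its genes to their geometric mean over the 12 libraries was 0.649 against 0.992 to 1.120. Comparisons of the mitochondrial genes that use this library are therefore given with and without it, and those of the nuclear lists where it changes a count. Summed FPKM of 6 hepatocyte markers (Alb, Apoa1, Ttr, Cps1, Cyp2e1, Serpina1c) was 53432 to 72049 in wild-type saline, 39467 to 57667 in wild-type ENU, 56207 to 95362 in Tert-/- saline and 38100 to 56342 in Tert-/- ENU libraries, so the markers defining the tissue were high throughout. Of these 6, limma called 0 lower with ENU in wild type (1 at an unadjusted p under 0.05), against 0.249% of all genes. In Tert-/- it called 2 lower (Ttr and Serpina1c), against 1.45%. There 3 were called without Tert-/- saline 2 (Cps1 being added), against 4.2%, and 1 (Serpina1c) under the median-ratio rescaling described below, against 2.81%. With ENU 0 of the 6 estimates were above 0 in either genotype. Their median log2 differences were -0.397 in wild type and -0.693 in Tert-/-, where all genes gave 0.104 and 0.240. The 5 erythroid markers summed to 213 to 411, 127 to 143, 187 to 837 and 105 to 124 FPKM in the same order. The 6 Kupffer cell markers summed to 169 to 320, 83.5 to 239, 99.1 to 205 and 72.8 to 95.8 FPKM. The 6 endothelial markers summed to 104 to 130, 58.4 to 94.95, 74.3 to 92.3 and 57.4 to 62.6 FPKM, the 5 stellate cell markers to 215 to 259, 153 to 247, 120 to 194 and 103 to 134, and the 4 cholangiocyte markers to 6.31 to 8.16, 4.41 to 7.17, 3.59 to 4.99 and 4.96 to 8.29. The erythroid and endothelial sums were lower with ENU in both genotypes without overlap. The Kupffer cell, stellate cell and cholangiocyte sums overlapped between saline and ENU in wild type. Between the saline groups, the endothelial, stellate cell and cholangiocyte sums were lower in Tert-/- without overlap. The part of all these marker lists in the results below was not tested. In bulk liver, fewer cells of a type and less RNA per cell cannot be told apart. Relative to log2(FPKM + 1) as deposited, a rescaling by the median ratio moved the median over all genes from 0.104 to 0.000 for ENU in wild type, from 0.240 to 0.000 for ENU in Tert-/-, and from -0.187 to -0.014 for Tert-/- against wild type in saline. With that rescaling the genes called higher and lower over the whole table became 68 and 53 instead of 93 and 31, 518 and 350 instead of 1011 and 180, and 126 and 295 instead of 93 and 530, in the same order.

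The mitochondrial genes together took 2.49 to 5.59% of the reads counted in genes. In wild-type mice the share was 3.58%, 4.45% and 4.33% with saline and 3.21%, 3.4% and 3.47% with ENU. In Tert-/- mice it was 4.63%, 2.49% and 5.59% with saline and 3.95%, 3.75% and 4.02% with ENU. The wild-type ENU libraries all lay below the wild-type saline libraries. Among Tert-/- mice, libraries 1 and 3 of the saline group lay above and library 2 below every ENU library, and library 2 had the smallest share of all 12. The group means ± SD were 4.12 ± 0.47% and 3.36 ± 0.13% in wild type, and 4.24 ± 1.6% and 3.91 ± 0.14% in Tert-/- (n = 3 each), the saline value of the latter being 5.11 ± 0.68% without library 2 (n = 2).

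**Figure D1:**
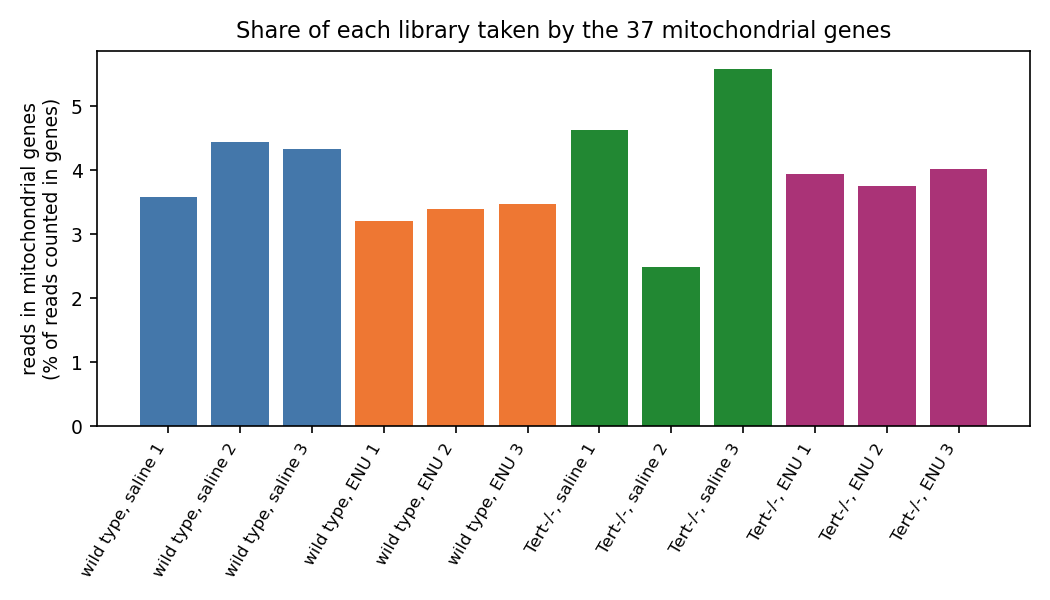
Share of reads counted in genes that fell in the 37 mitochondrial genes (y axis, percent) for each of the 12 libraries, coloured by group. Shares ran from 2.49% in the Tert-/- saline 2 library to 5.59% in Tert-/- saline 3, and the wild-type ENU bars (3.21 to 3.47%) are lower than the wild-type saline bars (3.58 to 4.45%).

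Reads were found in 16 of the 37 genes, and these 16 had reads in every library. All 13 protein-coding and both rRNA genes were among them. Of the tRNA genes, 21 were listed at 0 in all 12 libraries, and only mt-Tp, the proline tRNA gene on the light strand, had reads. It held 79 to 648 reads per library. The sequence of mt-Tp and that of its neighbour mt-Tt, the threonine tRNA gene that ends at the base before it and was listed at 0, are given as a pair of the same length, 67 bases (chrM:15356-15422, minus strand, and chrM:15289-15355, plus strand; no capitals are used):
mt-Tp: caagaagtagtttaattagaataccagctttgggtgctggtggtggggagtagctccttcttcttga
mt-Tt: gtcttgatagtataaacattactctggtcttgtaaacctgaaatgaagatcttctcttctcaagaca

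Levels per length of the 16 genes covered a wide range, with the cytochrome c oxidase subunit mt-Co1 on top. Its FPKM ran from 5904 to 14984, with a median of 11709. Next by median came the complex I subunit mt-Nd1 at 4873 (3459 to 6230), mt-Cytb of complex III at 4340 (3441 to 8091) and mt-Nd2 at 3754 (2807 to 5898), whose ranges overlapped. The remaining large complex I subunits were lower: mt-Nd4 at 1905 (1444 to 3020), mt-Nd5 at 1570 (765 to 2807) and mt-Nd6 at 915 (679 to 1870). The rRNAs mt-Rnr1 and mt-Rnr2 had medians of 329 and 245 FPKM, below all 7 of these mRNAs. The deposited medians of the other 6 protein-coding genes, whose levels are uncertain and cannot be ranked for the reason given below, were mt-Co2 at 175, mt-Atp6 at 113.5, mt-Co3 at 88.0, mt-Nd3 at 47.0, mt-Nd4l at 38.4 and mt-Atp8 at 12.7. The 7 abundant mRNAs made up 97.58 to 98.75% of the summed FPKM of the 13 protein-coding genes.

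**Figure D2:**
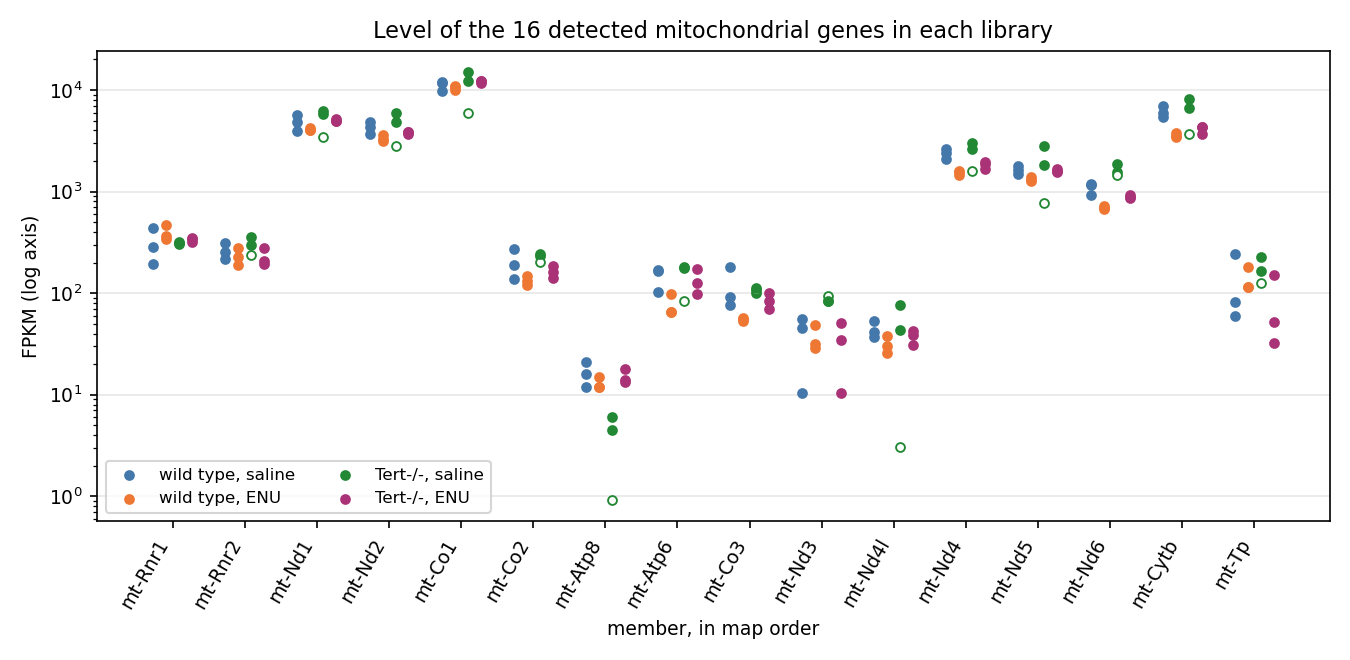
FPKM (y axis, log scale) of the 16 mitochondrial genes with reads, in map order along the x axis, 1 point per library and 1 colour per group; the open point is the Tert-/- saline 2 library. mt-Co1 has the highest values (5904 to 14984); the levels of mt-Co2, mt-Atp8, mt-Atp6, mt-Co3, mt-Nd3 and mt-Nd4l are uncertain and cannot be ranked, and the open point lies far below the rest for mt-Nd4l.

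Most of these 6 protein-coding genes have a near-identical copy in the nucleus. A block on chromosome 1 (minus strand) holds copies of 7 members in the same order: Gm29216 of mt-Co1, Gm28661 of mt-Co2, Gm10925 of mt-Atp6, Gm28437 of mt-Co3, Gm28438 of mt-Nd3, Gm10222 of mt-Nd4l and Gm28439 of mt-Nd4. The copies of mt-Co2, mt-Atp6, mt-Co3, mt-Nd4l and mt-Nd4 were 100% identical over 681, 678, 783, 294 and 876 bases, that of mt-Nd3 was 99.71% identical over 345 bases and that of mt-Co1 99.793% over 483. Of all windows of 100 bases, 97.59 to 99.85% of those in mt-Co2, mt-Atp6, mt-Co3, mt-Nd3 and mt-Nd4l occurred exactly in a nuclear transcript. The figure was 60.75% for mt-Nd4, 30.84% for mt-Co1, 3.195% for mt-Nd2 and 0% for mt-Nd1, mt-Nd5, mt-Nd6, mt-Cytb and both rRNAs. Windows of 50 bases gave 62.23% for mt-Nd4, 51.14% for mt-Co1, 8.19% for mt-Nd2, 7.606% for mt-Nd5 and 1.044% for mt-Rnr2. They gave 0% for mt-Nd1, mt-Nd6, mt-Cytb and mt-Rnr1. The read length, on which the choice of window bears, is not given. The 5 genes with nearly all windows shared had medians of 38.4 to 175 FPKM, and the 7 abundant mRNAs had medians of 915 to 11709. mt-Atp8 was low with 0% of its windows in an annotated nuclear transcript. Its last 43 bases, which overlap mt-Atp6, do occur in Gm10925 but are shorter than a window. The gene starts within the 230 bases between mt-Co2 and mt-Atp6 and ends inside mt-Atp6. In the nuclear block an unannotated gap of 233 bases lies between Gm28661 and Gm10925. The sequence of that gap was not compared, so whether it holds a copy of mt-Atp8 was not tested. How reads with several matches were treated is not given in the sources used here, so the levels of these 6 genes are uncertain and cannot be ranked against those of the others.

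**Figure D3:**
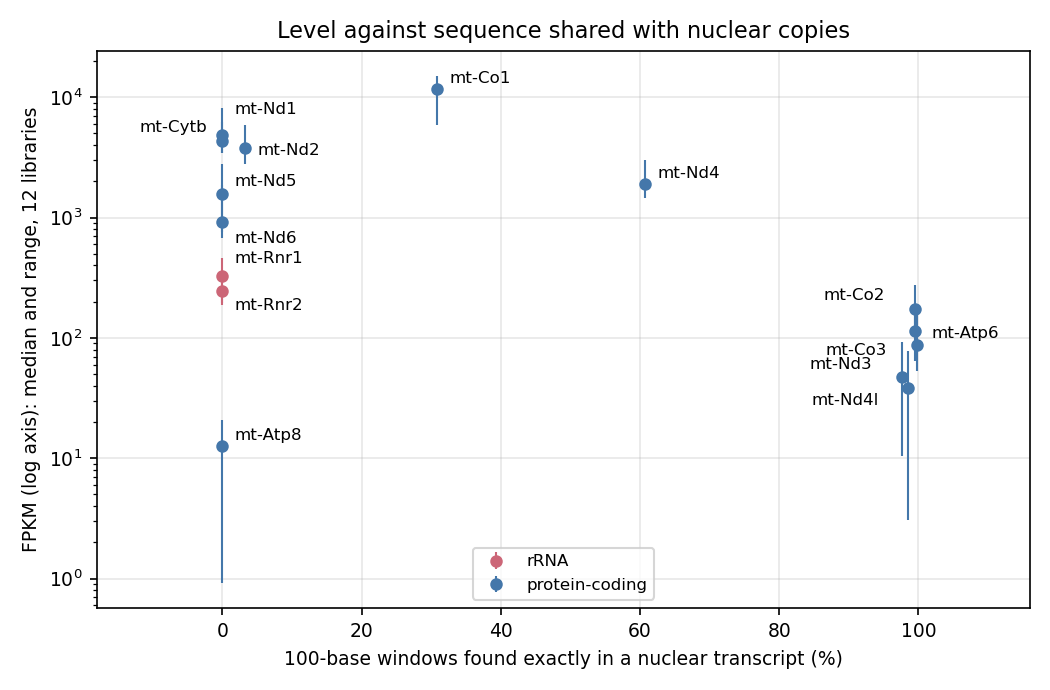
Median FPKM over 12 libraries with the lowest and highest value as bars (y axis, log scale) against the percentage of 100-base windows found exactly in a nuclear transcript (x axis), for the 13 protein-coding and 2 rRNA genes. The 5 genes at the right (97.59 to 99.85% shared) lie at medians of 38.4 to 175 FPKM. mt-Atp8, with no whole window shared, has a median of 12.7.

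The division of FPKM between a member and its copy varied less for 6 of the 7 pairs than for mt-Nd3. The member held 60.9 to 74.9% of the summed FPKM for mt-Co2, 44.0 to 64.0% for mt-Atp6, 56.2 to 74.8% for mt-Co3, 59.1 to 68.6% for mt-Nd4l, 98.4 to 99.5% for mt-Nd4 and 97.9 to 99.6% for mt-Co1. For mt-Nd3, a complex I subunit, it held 72.5 to 84.2% in 10 libraries but 10.3% in wild-type saline 1 and 17.8% in Tert-/- ENU 1. Those libraries had mt-Nd3 at 10.46 and 10.34 FPKM and Gm28438 at 91.1 and 47.8 FPKM, whereas elsewhere mt-Nd3 was at 28.8 to 92.8 and Gm28438 at 5.40 to 23.7. The low mt-Nd3 values of these 2 libraries thus came with high values of its copy.

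ENU lowered no member past the threshold in wild-type livers when all 12 libraries were fitted, but 7 of the 16 genes had every ENU library below every saline library. They were mt-Nd2, mt-Nd4, mt-Nd5 and mt-Nd6 of complex I, mt-Cytb, mt-Co3 and mt-Atp6, against 8.33% of all tested genes with lower and not overlapping values. None was higher without overlap, against 27% of all tested genes. For 12 of the 13 protein-coding genes the estimate was below 0, with a median log2 difference of -0.476 where the median of all genes was 0.104.

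Cytochrome b, the mitochondrially encoded subunit of complex III, is an example of the abundant mRNAs. mt-Cytb stood at 5451, 7004 and 5944 FPKM in wild-type saline and 3558, 3783 and 3441 in wild-type ENU libraries. All ENU values were lower, and the log2 difference was -0.76 (SE 0.25, limma adjusted p = 0.221). The complex I subunit mt-Nd4 stood at 2087, 2626 and 2395 FPKM with saline and 1444, 1563 and 1596 with ENU, a log2 difference of -0.62 (SE 0.22, limma adjusted p = 0.253). Here too the groups did not overlap. mt-Nd6 stood at 915, 1189 and 1153 FPKM with saline and 696, 714 and 679 with ENU, a log2 difference of -0.63 (SE 0.15, limma adjusted p = 0.0836).

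At an adjusted p under 0.05 (limma, Benjamini-Hochberg over 12434 genes), 0 of 16 members were called in wild type, against 0.748% of all genes called higher and 0.249% called lower; 6 members had an unadjusted p under 0.05, against 12.7% of all genes, and voom on the recovered reads also called 0. The fit pools the spread of all 4 groups, so the Tert-/- saline 2 library enters the error of this comparison without being in it. Without that library, with the same differences, 5 of 16 members fell past the threshold and 0 rose, against 2.1% of all genes called lower and 8.55% called higher. They were mt-Nd6 (adjusted p = 0.0133), mt-Cytb (0.0149), mt-Nd4 (0.0162), mt-Co3 (0.0391) and mt-Atp6 (0.0437). Over all alternatives the adjusted p ranged from 0.0037 to 0.327 for mt-Nd6, 0.0032 to 0.563 for mt-Cytb, 0.00383 to 0.587 for mt-Nd4, 0.021 to 0.352 for mt-Co3 and 0.0224 to 0.611 for mt-Atp6. The differences of mt-Co3 and mt-Atp6, both nearly identical to nuclear copies, were -0.97 (SE 0.26) and -0.92 (SE 0.33) on the log2 scale in the 12-library fit. The rRNAs gave values on either side of 0, 0.42 (SE 0.24) for mt-Rnr1 and -0.17 (SE 0.22) for mt-Rnr2.

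**Figure D4:**
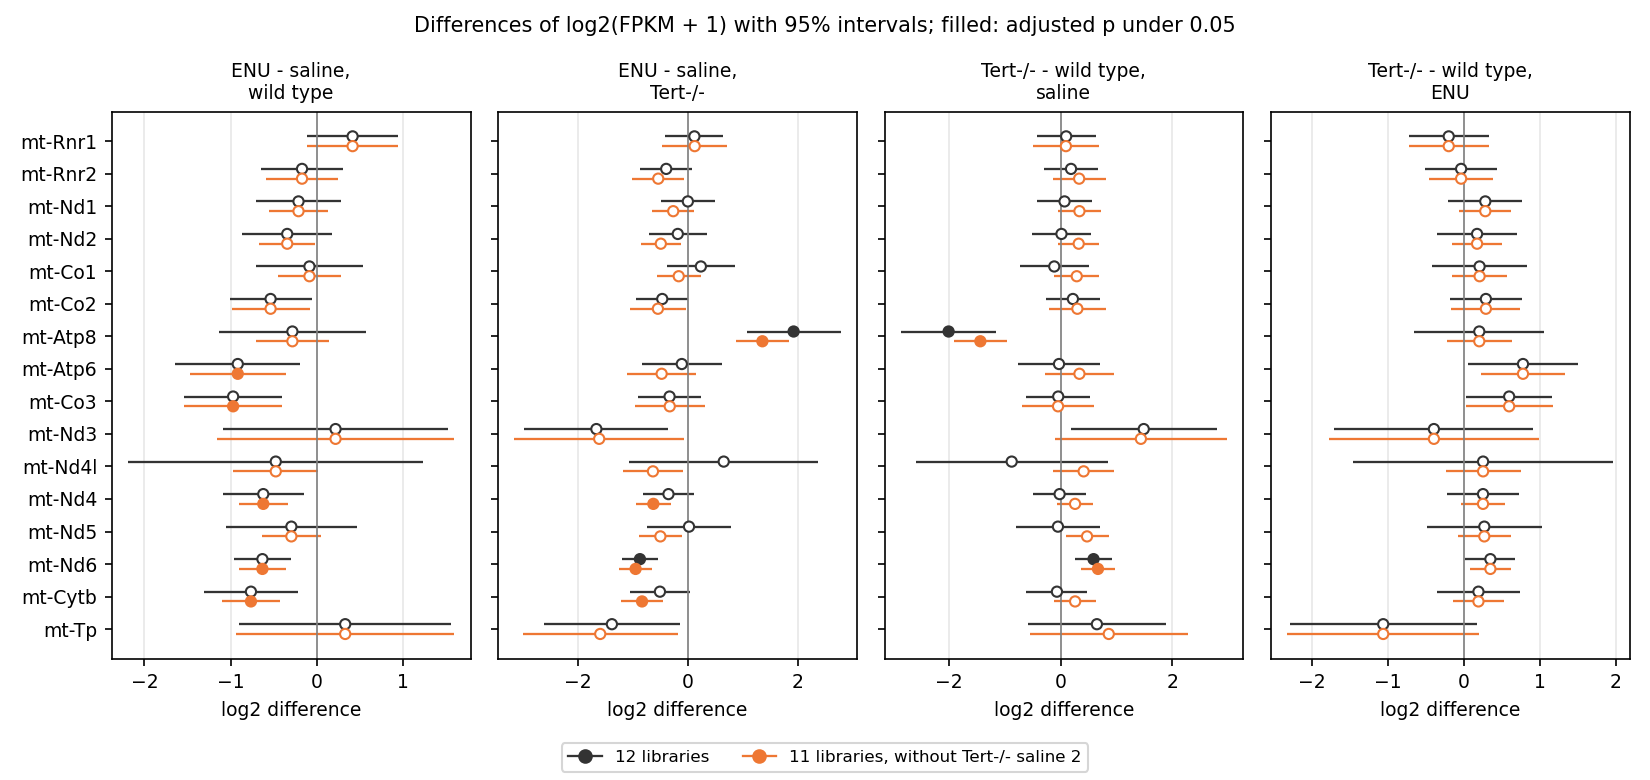
Differences of log2(FPKM + 1) (x axis) for the 16 mitochondrial genes with reads (y axis) in 4 comparisons, with 95% confidence intervals; black is the fit of 12 libraries, orange that of 11 without Tert-/- saline 2, and filled points have an adjusted p under 0.05. In the Tert-/- ENU comparison mt-Atp8 lies at 1.92 and mt-Nd6 at -0.87, both filled in both fits, and in wild type 5 genes are filled only in orange.

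In Tert-/- livers, ENU lowered mt-Nd6 and raised mt-Atp8. mt-Nd6 stood at 1574, 1454 and 1870 FPKM in the saline libraries and at 857, 893 and 915 in the ENU libraries, so its ENU values were all well below. It fell by 0.87 on the log2 scale (SE 0.15, limma adjusted p = 0.0073). mt-Atp8, a small subunit of the ATP synthase, stood at 4.52, 0.927 and 6.10 FPKM with saline and at 13.3, 14.0 and 18.1 with ENU. These rested on 34, 6 and 44 reads against 98, 115 and 160, and the groups did not overlap. It rose by 1.92 on the log2 scale (SE 0.39, limma adjusted p = 0.0145), and by 1.35 (SE 0.22, adjusted p = 0.00316) without Tert-/- saline 2, with adjusted p from 2.11e-06 to 0.143 over 25 alternatives. The call was lost without Tert-/- ENU 1 (adjusted p = 0.0527) or Tert-/- ENU 3 (adjusted p = 0.0591).

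These were the 2 of 16 members called in that comparison, against 8.13% of all genes called higher and 1.45% called lower. Without overlap, 4 members were lower (mt-Nd3, mt-Nd6, mt-Co2 and mt-Co3, against 6.35% of all genes) and 2 higher (mt-Rnr1 and mt-Atp8, against 24.5%). The median log2 difference of the 13 protein-coding genes was -0.183, with 9 below 0, and that of all genes 0.240. Without Tert-/- saline 2, that median was -0.499 with 12 below 0, the all-gene median was 0.075, and 13 of 16 members lay lower without overlap, against 16.7% of all genes, and the same 2 lay higher, against 29.6%. Then 3 members fell past the threshold, against 4.2% of all genes called lower, and mt-Atp8 rose, against 12.9% called higher. mt-Nd6 fell by 0.95 (SE 0.14, adjusted p = 0.00221), mt-Cytb by 0.83 (SE 0.17, adjusted p = 0.0102) and mt-Nd4 by 0.63 (SE 0.14, adjusted p = 0.0154), by limma. Over the alternatives the adjusted p ran from 4.48e-06 to 0.126 for mt-Nd6, from 9.18e-05 to 0.619 for mt-Cytb and from 0.000199 to 0.87 for mt-Nd4.

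Individual values show how library 2 enters these results. mt-Cytb stood at 6608, 3717 and 8091 FPKM in Tert-/- saline and at 4327, 3679 and 4352 in Tert-/- ENU libraries, so only saline library 2 fell inside the ENU range. mt-Co1 stood at 12384, 5904 and 14984 FPKM with saline and at 12387, 11681 and 12379 with ENU, and saline library 2 was the lowest of all 12. In mt-Nd4l, a small complex I subunit, that library had 3.08 FPKM from 29 reads against 25.8 to 77.1 elsewhere. Not every member shared this drop. The mt-Nd6 value in library 2, 1454 FPKM, was above every library outside the Tert-/- saline group. In the same library mt-Nd3, at 92.8 FPKM, was the highest of all 12. There mt-Co3 (106.4 FPKM) and mt-Rnr1 (312 FPKM) lay between the other libraries of their group.

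Among saline livers, Tert-/- mice had more mt-Nd6 RNA and less mt-Atp8 RNA than wild type. For mt-Nd6, the Tert-/- values (1574, 1454 and 1870 FPKM) all exceeded the wild-type values (915, 1189 and 1153), a rise of 0.59 on the log2 scale (SE 0.15, limma adjusted p = 0.0469). That call was narrow: over 25 alternatives the adjusted p ran from 0.000122 to 0.284 and 9 passed the threshold, and it was lost on leaving out any library but Tert-/- saline 2, without which the rise was 0.67 (adjusted p = 0.0164). For mt-Atp8, wild-type saline libraries had 15.86, 20.96 and 12.01 FPKM (128, 146 and 107 reads), all above the Tert-/- saline libraries. It fell by 1.999 on the log2 scale (SE 0.39, limma adjusted p = 0.0239) and fell by 1.43 (SE 0.22, adjusted p = 0.00689) without Tert-/- saline 2. Over its 25 alternatives the adjusted p ran from 6.9e-06 to 0.186, 20 passed, and leaving out wild-type saline 1, 2 or 3 gave 0.11, 0.0957 and 0.0586.

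The count of 2 called members compared with 0.748% of all genes called higher and 4.26% called lower. Without overlap, mt-Nd6 and mt-Nd3 were higher (6.42% of all genes) and mt-Atp8 lower (19.5%); without Tert-/- saline 2, 8 members were higher (22%) and 1 lower (24.8%). Without that library the same pair, mt-Nd6 and mt-Atp8, was called, against 4.68% of all genes higher and 8.2% lower. The median log2 difference of the protein-coding genes was -0.027 with 5 of 13 above 0 in the 12-library fit, 0.325 with 11 above 0 without Tert-/- saline 2, and 0.194 with 11 above 0 under median-ratio rescaling. The direction of the uncalled members therefore depended on that library and on the scaling.

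After ENU, Tert-/- livers had slightly higher values than wild type for most of the abundant mRNAs, and no gene of the table passed the threshold. Without overlap, 7 of 16 members were higher (mt-Nd1, mt-Nd2, mt-Nd4, mt-Nd5, mt-Nd6, mt-Co1 and mt-Co3), against 5.56% of all genes, and 0 were lower, against 10.4%. mt-Nd1, for example, measured 4001, 4060 and 4270 FPKM in the wild-type ENU group, and 4925, 4901 and 5185 in the Tert-/- ENU group, a log2 difference of 0.28 (SE 0.22, limma adjusted p = 1). The protein-coding genes had a median log2 difference of 0.255, with 12 of 13 above 0, beside -0.031 for all genes. By limma 0 of 16 members and 0% of all genes were called, with 3 members and 4.35% of all genes at an unadjusted p under 0.05; voom called 0 as well. mt-Atp8 overlapped between the genotypes here, at 11.9, 12 and 14.9 FPKM in wild type and 13.3, 14.0 and 18.1 in Tert-/-. Without Tert-/- saline 2 in the fit, 0 members and 0% of all genes were again called, with 3 members and 10.5% of all genes at an unadjusted p under 0.05.

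The comparisons above share groups of libraries, ENU in Tert-/- and Tert-/- against wild type in saline having the Tert-/- saline group in common. That group alone held the low mt-Atp8 values (0.927 to 6.10 FPKM against 11.9 to 20.96 in the other 9 libraries) and the highest mt-Nd6 values. The difference between the ENU effects of the genotypes, tested as an interaction, was 2.20 on the log2 scale for mt-Atp8 (SE 0.55, limma adjusted p = 0.67; 0.00235 to 0.936 over 24 alternatives) and -0.24 for mt-Nd6 (SE 0.21, limma adjusted p = 0.808). By limma 0 of 16 members and 0% of all genes passed, with 2 members and 6.79% of all genes at an unadjusted p under 0.05, and voom called 0; without Tert-/- saline 2, 0 were called, with 2 members and 13.3% of all genes at an unadjusted p under 0.05. A different ENU response in the genotypes was not shown for any member.

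**Figure D5:**
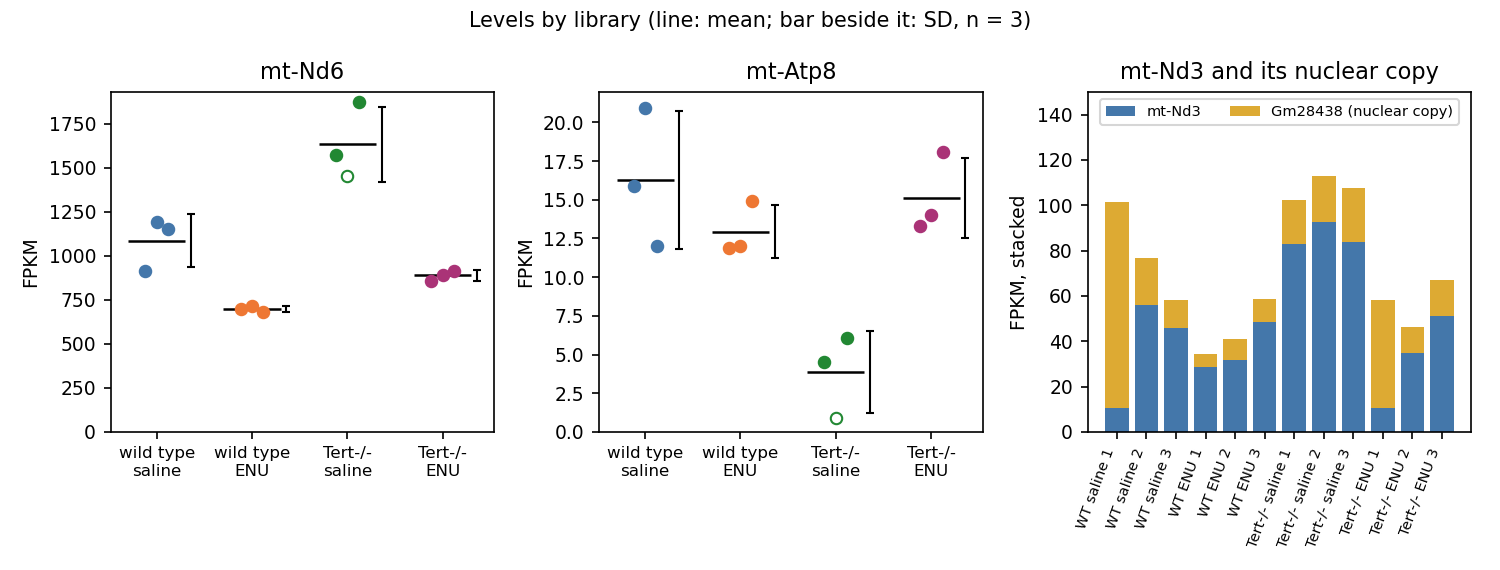
FPKM (y axes) of mt-Nd6 and mt-Atp8 in each library by group, with the group mean as a line and the SD as a bar beside it (n = 3; open point, Tert-/- saline 2), and stacked FPKM of mt-Nd3 and its nuclear copy Gm28438 in each library. The Tert-/- saline group holds the highest mt-Nd6 values (1454 to 1870) and the lowest mt-Atp8 values (0.927 to 6.10), and Gm28438 takes most of the bar in wild-type saline 1 and Tert-/- ENU 1.

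mt-Nd3 has to be read together with its copy. Alone, it stood at 83.0, 92.8 and 83.9 FPKM in Tert-/- saline and at 10.3, 34.8 and 51.1 in Tert-/- ENU libraries, a log2 difference of -1.66 (SE 0.60, limma adjusted p = 0.0969). Summed with Gm28438, the values were 103, 113 and 108 FPKM with saline and 58.2, 46.2 and 67.2 with ENU, with no overlap and a tighter spread. The sum fell by 0.92 on the log2 scale (SE 0.24, limma adjusted p = 0.0327), and by 0.88 (SE 0.25, adjusted p = 0.0375) without Tert-/- saline 2. In wild type the sum was 102, 77.0 and 58.4 FPKM with saline and 34.2, 41.0 and 58.8 with ENU, a log2 difference of -0.81 (SE 0.24, limma adjusted p = 0.168; 0.0478 without Tert-/- saline 2 in the fit), whereas mt-Nd3 alone had given 0.22 (SE 0.60). With copies added to all 7 members concerned, the members called numbered 0 for ENU in wild type, 3 for ENU in Tert-/- and 2 for Tert-/- against wild type in saline. Without Tert-/- saline 2 they numbered 6, 5 and 2. Before copies were added, leaving out that library had already taken ENU in wild type from 0 to 5. Shares of all genes were not counted in the fits with copies. Without copies they were 0.748% higher and 0.249% lower, 8.13% and 1.45%, and 0.748% and 4.26%, in the same order. Without Tert-/- saline 2 they were 8.55% and 2.1%, 12.9% and 4.2%, and 4.68% and 8.2%.

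The make-up of the mitochondrial mRNA pool differed between saline and ENU libraries in both genotypes, a measure that does not depend on library scaling. Within the summed FPKM of the 7 abundant mRNAs, mt-Co1 made up 36%, 35.4% and 35.2% in wild-type saline and 41.4%, 41.8% and 42.3% in wild-type ENU libraries. In Tert-/- libraries it made up 34.7%, 30% and 34.9% with saline and 41.7%, 41.4% and 41% with ENU. Every ENU library lay above every saline library, whichever the genotype. mt-Cytb took 17.8 to 20.8% of the pool with saline in wild type and 13.3 to 14.9% with ENU, and 18.5 to 18.9% and 13 to 14.6% in Tert-/-. mt-Nd4 took 7.04 to 8.09% over the saline libraries of both genotypes and 5.96 to 6.41% over the ENU libraries, again with no overlap. mt-Nd6 took 3.34 to 3.52% with saline and 2.63 to 2.88% with ENU in wild type, and 4.36 to 7.38% and 2.88 to 3.16% in Tert-/-, the 7.38% being library 2. mt-Nd1, mt-Nd2 and mt-Nd5 overlapped between saline and ENU libraries in wild type. Since shares sum to a whole, a higher share of 1 mRNA lowers those of the others. The order of the ENU differences over the 7 mRNAs was much the same in the genotypes, which share no library in these contrasts (Spearman's rho 0.93 over 7 genes, a description).

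Among the nuclear genes that serve the same complexes, 85 subunit genes of complexes I to V were in the table and 80 were tested. By limma, ENU in wild type raised 2 and lowered 0 (11 at an unadjusted p under 0.05), where 0.748% and 0.249% of all genes were called. The median log2 difference was 0.113, close to the 0.104 of all genes, whereas the mitochondrially encoded subunits lay at -0.476. The 2 were Ndufb6, an accessory subunit of complex I, which rose by 0.85 (SE 0.14, limma adjusted p = 0.0152), and Cox6b2, a testis-enriched form of a complex IV subunit, which rose by 1.76 (SE 0.33, adjusted p = 0.0272). Under median-ratio rescaling, with 0.547% of all genes called higher and 0.426% lower, the call of Ndufb6 was lost (adjusted p = 0.126). Leaving out Tert-/- saline 2, limma called 8 of 80 higher and 2 lower, near the 8.55% and 2.1% of all genes.

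ENU in Tert-/- raised 1 and lowered 10 of the 80, against 8.13% and 1.45% of all genes, with a median of -0.395 where all genes gave 0.240. Cox6b2 rose again, by 1.82 (SE 0.33, limma adjusted p = 0.0087), while the complex IV subunit Cox5a fell by 0.79 (SE 0.17, adjusted p = 0.0177) and the complex I subunit Ndufb8 by 0.56 (SE 0.14, adjusted p = 0.0289). The counts were again 1 and 10 without Tert-/- saline 2, against 12.9% and 4.2%, and the median was -0.144 where all genes gave 0.075. Under median-ratio rescaling 1 was called higher and 4 lower, against 4.17% and 2.81%, Cox6b2, Cox5a and Ndufb8 among them.

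Tert-/- against wild type in saline raised 17 of the 80 nuclear subunit genes and lowered 0 by limma, against 0.748% and 4.26% of all genes, with 54 at an unadjusted p under 0.05. Of the 80 estimates 76 were above 0, and the median was 0.567 where all genes gave -0.187. The complex I subunit Ndufa12 rose by 1.35 (SE 0.23, limma adjusted p = 0.0173), Ndufb8 by 0.70 (SE 0.14, adjusted p = 0.0246) and Cox5a by 0.79 (SE 0.17, adjusted p = 0.0305). Under median-ratio rescaling 6 were called higher and 0 lower, against 1.01% and 2.37% of all genes, and the call of Cox5a was lost (adjusted p = 0.0515). Without Tert-/- saline 2 the counts were 29 and 0, against 4.68% and 8.2%, the median 0.366 and the mitochondrially encoded median 0.325. After ENU, 0 nuclear subunit genes passed between genotypes by limma, 1 was at an unadjusted p under 0.05, and the median was 0.068. By complex, the saline genotype comparison called 6 of 37 for complex I, 1 of 4 for complex II, 0 of 9 for complex III (5 at an unadjusted p under 0.05), 5 of 13 for complex IV and 5 of 17 for complex V. These counts were 10, 3, 2, 8 and 6 without Tert-/- saline 2.

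Genes that make, cut and translate mitochondrial RNA were followed in 7 lists with 166 tested genes, and few were called by limma. ENU in wild type called 1 higher and 0 lower (13 at an unadjusted p under 0.05), ENU in Tert-/- 5 and 1, and Tert-/- against wild type in saline 4 and 0, beside the shares of all genes given above for these fits. Without Tert-/- saline 2 the counts were 13 and 1, 15 and 3, and 14 and 3, and under median-ratio rescaling 1 and 0, 1 and 3, and 4 and 0, in the same order. As shares of the 166 these lay on either side of those of all genes, which without that library were 8.55% and 2.1%, 12.9% and 4.2%, and 4.68% and 8.2%.

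Of 10 tested transcription genes, Polrmt, the mitochondrial RNA polymerase, rose with ENU in Tert-/- by 0.62 (SE 0.13, limma adjusted p = 0.0187), where the median of all genes was 0.240, and gave 0.33 (adjusted p = 0.256) under median-ratio rescaling. Tfam, which packages and helps transcribe the genome, gave 0.00 (SE 0.16) with ENU in wild type. Among 8 regulators of mitochondrial gene programmes, Esrra, a nuclear receptor, rose with ENU in wild type by 1.08 (SE 0.21, limma adjusted p = 0.0349), and Pprc1, a coactivator of the PGC-1 family, rose with ENU in Tert-/- by 1.28 (SE 0.19, adjusted p = 0.00468); both were also called under the rescaling and without Tert-/- saline 2. Of 20 RNA processing and decay genes, Ptcd1 gave 0.55 with ENU in Tert-/- (SE 0.13, limma adjusted p = 0.028), a call lost under the rescaling (0.27, adjusted p = 0.263). Ptcd2 was higher in Tert-/- saline than wild-type saline livers by 0.64 (SE 0.16, limma adjusted p = 0.0417). With ENU in Tert-/- it gave -0.48 (adjusted p = 0.0727), and it was called lower under the rescaling (adjusted p = 0.0354) and without Tert-/- saline 2 (-0.45, adjusted p = 0.0496).

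Of 21 tRNA synthetase and charging genes, 3 were called for ENU in Tert-/-. Fars2 fell by 1.14 (SE 0.26, limma adjusted p = 0.0215), also under the rescaling. Yars2 and Gatc gave 0.51 and 0.52 (limma adjusted p = 0.0391 and 0.042), and both calls were lost under the rescaling (adjusted p = 0.344 and 0.247). A total of 5 of the 21 were called higher and 1 lower when Tert-/- saline 2 was left out. Of 77 mitochondrial ribosomal protein genes, 3 (Mrpl13, Mrpl27 and Mrps15) were higher in Tert-/- saline livers, of which Mrpl27 and Mrps15 were not called under the rescaling. For ENU 0 of the 77 were called by limma, with 0 in wild type and 11 in Tert-/- at an unadjusted p under 0.05. Under the rescaling 0 were called higher and 1 lower for ENU in Tert-/-, against 4.17% and 2.81% of all genes. Of the 77, 27 were then at an unadjusted p under 0.05 by limma. Without Tert-/- saline 2, 4 of the 77 were called higher for ENU in Tert-/-, fewer in share than the 12.9% of all genes. The median log2 difference was -0.109 as deposited, -0.411 under the rescaling and 0.033 without Tert-/- saline 2. None of 12 mitochondrial DNA replication genes and none of 18 rRNA and tRNA modification genes was called by limma on the values as deposited, where 0 to 3 of each list were at an unadjusted p under 0.05. Under the rescaling 1 was called, Polg2, the accessory subunit of the mitochondrial DNA polymerase, higher in Tert-/- saline livers (0.78, adjusted p = 0.0295). Leaving out Tert-/- saline 2 brought calls of 2 replication genes for ENU in each genotype and 1 in the saline comparison, and of 3 modification genes for ENU in wild type and 1 in the saline comparison, all higher. Polg, the catalytic subunit of that polymerase and one of the 2 replication genes with the highest level, gave 0.91 with ENU in Tert-/- (SE 0.29, limma adjusted p = 0.0695), and 0.48 (SE 0.13, adjusted p = 0.031) without Tert-/- saline 2.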

How the data were processed

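RNA-seq of mouse liver was analysed in 12 libraries, grouped by the labels. Total RNA was extracted with TRIzol and libraries were made with an NEBNext Ultra kit, per the labels. Reads were processed with HISAT2 and HTSeq on mm10, per the submitters' processing notes; what versions, annotation, strand setting and read length were used is not given. A single table of FPKM values per gene and library was deposited by the authors.

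The FPKM values multiplied by gene length gave whole reads for the 16 members with reads, within 0.0005, and so the library totals. Differences of log2(FPKM + 1), which understate changes of low genes, were tested with limma 3.58.1 (R 4.3.3), a group-means model with a mean-variance trend over 12 libraries. A gene entered if 3 or more libraries reached 1 FPKM (12434 did), p-values were two-sided and adjusted by Benjamini-Hochberg over all of them within a comparison, and the threshold was 0.05. The fit was tested on simulated data. All members were compared with 141730 nuclear GENCODE M21 transcripts by blastn 2.17.0. Exact windows were searched in those nuclear transcripts that had a blastn match. Alternatives were other scalings, filters, pseudocounts, weights, voom on recovered reads, a replicate block, leaving out each library, and summing a member with its copy.

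The members, the gene lists and the tests were chosen with earlier results of these data known. All members are accounted for; from each list at most the 3 called genes with the largest moderated statistic are named, or without calls the 2 with the highest level, with Tert as a check of the labels.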

Additional observations from a re-analysis of the deposited data

How the results depend on the processing

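A set of 18 results for single members was followed under the alternatives. Of their values, 392 kept direction and side of the threshold, 36 crossed to an adjusted p under 0.05 and 25 crossed out of it. The remaining 3 changed direction, all for mt-Atp6 with ENU in Tert-/- (-0.11 on the log2 scale). It became 0.084 without Tert-/- saline 1, 0.060 without Tert-/- saline 3 and 0.090 without Tert-/- ENU 1. On leaving out 1 library, its lowest value was -0.476, without Tert-/- saline 2. Results outside this set also changed direction without Tert-/- saline 2. With ENU in Tert-/-, mt-Co1 went from 0.236 to -0.166, mt-Nd4l from 0.651 to -0.634 and mt-Nd5 from 0.021 to -0.499. For ENU in wild type, with 0 members called, array weights gave 5, a fit of only those 2 groups 3, voom with median-ratio factors 2 and median-ratio rescaling of 11 libraries 5. Over all genes these fits called 1990 higher and 541 lower, 895 and 216, 72 and 63, and 379 and 383, in that order. Leaving out 1 library gave 0 to 5 members. For ENU in Tert-/-, with 2 called, median-ratio rescaling gave 4, array weights 10, only those groups 0, voom with median-ratio factors 4 and median-ratio rescaling of 11 libraries 6. Over all genes these fits called 518 higher and 350 lower, 4483 and 2592, 47 and 9, 468 and 301, and 1104 and 878. Leaving out 1 library gave 1 to 4 members. For Tert-/- against wild type in saline, with 2 called, quantile normalization gave 1 and FPKM rescaled without the mitochondrial genes 1. No filter on low values gave 0, array weights 5 and only those groups 0. Over all genes these fits called 181 higher and 309 lower, 89 and 478, 47 and 233, 3135 and 3590, and 0 and 1. Leaving out 1 library gave 0 to 2 members. The interaction, with 0 called, gave 1 with array weights, a fit that called 733 higher and 787 lower over all 12434 genes. Leaving out 1 library left the interaction and Tert-/- against wild type after ENU at 0. Without Tert-/- saline 2, ENU in wild type called 1063 higher and 261 lower over all genes instead of 93 and 31. ENU in Tert-/- then called 1608 and 522 instead of 1011 and 180, and the saline comparison 582 and 1020 instead of 93 and 530. The cause of these shifts was not tested.

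The replicate numbers were not taken as pairs, and whether they mark pairs is not settled by these values. Correlations of same-numbered libraries' deviations from their group means ran from -0.156 to 0.208, and those of other libraries from -0.255 to 0.237. Between wild-type saline and wild-type ENU they were 0.123, 0.099 and 0.165 for the same number and -0.128 to 0.012 otherwise. A fit with the replicate number as a block called 0 members for ENU in wild type, 3 for ENU in Tert-/-, 1 for Tert-/- against wild type in saline and 0 in the others. Over all genes it called 81 higher and 27 lower, 796 and 158, 39 and 305, and 0 in the others, in the same order. The voom fits, the median-ratio rescaling of 11 libraries and the summing with copies were chosen after seeing the data. The share of reads in mitochondrial genes averaged 3.91% over 12 libraries and 3.83% for the protein-coding genes alone. With 3 libraries a group and 6 reads of mt-Atp8 in Tert-/- saline 2, depth limits that gene most.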
